A study of Homo sapiens with 2 samples.

Results

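The receptors of the EGFR family, their ligands, and proteins that restrain or relay their signal were examined in a human breast cancer cell line with 1 RNA sequencing library per group. Cells were given a Smart Silencer, a mixture of silencing oligonucleotides, against the antisense RNA THAP7-AS1 (THAP7-AS1 knockdown), or a negative control (si-NC control), and RNA was taken 48 h later. The labels call the line 468 and describe it as epithelioid breast cancer cells, and cells of both groups grew in L15 medium with serum. Since both samples carry the silencer in their treatment label, they were told apart by the genotype label. With a single library in each group there was no replicate to check a difference against, and none was tested. A gene was matched by its Ensembl identifier, without the version, to its symbol. Of 10 genes chosen for the family, EGFR, ERBB2, ERBB3, AREG, TGFA, HBEGF, ERRFI1, LRIG1 and GRB2 were found in both tables, 9 of the 13017 genes listed. The ligand gene EREG was not analysed here.

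EGFR, ERBB2 and ERBB3 are receptor tyrosine kinases that pair with each other on the cell surface. ERBB2 has no known ligand of its own, and ERBB3 has a kinase of very low activity and signals through its partners. Amphiregulin (AREG), TGF-alpha (TGFA) and HB-EGF (HBEGF) are made as membrane-bound precursors and bind EGFR after they are cut free by proteases of the ADAM family. Activated receptors recruit the adaptor GRB2, which carries the exchange factor SOS to RAS. ERRFI1 (MIG6) binds and blocks the EGFR kinase, and LRIG1 promotes the breakdown of the receptors. Amplification of EGFR is a known feature of the line MDA-MB-468. DNA copy number was not measured here.

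The targeted RNA THAP7-AS1 was not analysed here, and the extent of its knockdown is therefore unknown. THAP7, which overlaps it on the opposite strand, was at 8.38 FPKM in knockdown cells and 2.71 FPKM in control cells. FPKM, fragments scaled by gene length and library size, corrects for gene length, so levels of different genes can be set side by side. The depth was estimated at 11100000 fragments in knockdown cells and 10900000 in control cells. The 9 epithelial markers summed to 1986 and 1863 FPKM in the knockdown and control libraries, most of it from KRT19 at 1106 and 1057 FPKM. EPCAM was at 231.5 and 223.8 FPKM, CDH1 at 12.4 and 17.1 FPKM and CLDN4 at only 0.233 and 0.303 FPKM. The 7 measured of 8 basal markers summed to 183 and 172 FPKM, from KRT17 at 77.4 and 76.9 FPKM to KRT6A at 0.795 and 0.973 FPKM. The 4 measured of 8 luminal markers summed to 114 and 91.0 FPKM, of which XBP1 gave 65.5 and 46.3 FPKM. ESR1, PGR, TFF1 and TFF3 were not analysed here. Of markers of other cell types, the 3 measured of 7 for fibroblasts summed to 1.74 and 2.24 FPKM, and the 1 measured of 5 for endothelium, KDR, was at 1.07 and 1.15 FPKM. The 3 measured of 6 for leukocytes summed to 14.8 and 14.1 FPKM, of which CD14 gave 10.3 and 9.50 FPKM, and PTPRC and CD3E were not analysed here.

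The start regions of 3 members are shown for orientation, since they are those of the most abundant member (EGFR), the least abundant (AREG) and the one with the largest ratio between libraries (GRB2). Each run holds the 150 bases before the annotated start, from the RefSeq promoter table (GRCh38.p14), 5′ to 3′ on the gene's strand, with matches to the searched motifs in capitals. They lie at chr7:55018867-55019016 on the plus strand, chr4:74444986-74445135 on the plus strand and chr17:75405679-75405828 on the minus strand.
EGFR: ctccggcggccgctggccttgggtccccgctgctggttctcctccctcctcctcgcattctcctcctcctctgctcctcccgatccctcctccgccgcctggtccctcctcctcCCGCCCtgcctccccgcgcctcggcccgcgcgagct
AREG: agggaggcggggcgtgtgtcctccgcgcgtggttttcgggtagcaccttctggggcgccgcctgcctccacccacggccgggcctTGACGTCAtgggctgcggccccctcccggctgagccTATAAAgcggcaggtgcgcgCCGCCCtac
GRB2: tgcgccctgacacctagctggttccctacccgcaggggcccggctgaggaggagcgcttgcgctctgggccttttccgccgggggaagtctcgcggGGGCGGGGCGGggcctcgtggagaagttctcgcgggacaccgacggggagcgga

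The motifs searched on both strands were the GC box GGGCGG, the TATA box TATAAA, the cyclic AMP response element TGACGTCA and the AP-1 site TGAGTCA. Neighbouring GC boxes may share a base. The AREG run held 1 TATA box that begins 29 bases before the start and 1 cyclic AMP response element that begins 65 bases before it. The EGFR and AREG runs each held 1 GC box and the GRB2 run 2. Neither the EGFR run nor the GRB2 run held the letters TATAAA. Over the whole windows of 300 bases, the table had 14 start windows for 9 of the 10 genes, EREG included, and ERBB3 was not matched. Some genes have several windows, and windows 1 and 2 of LRIG1 overlap, so matches were also counted by gene. A GC box was found in 7 of the 9, a TATA box in 3, an AP-1 site in 2 and a cyclic AMP response element in 1, AREG. Counted by window, 9 of the 14 held a GC box, 3 a TATA box, 2 an AP-1 site and 1 a cyclic AMP response element. The AP-1 sites lay in window 2 of 2 for EGFR and window 4 of 4 for LRIG1. Of 35116 windows of all genes, 45.0% held a GC box, 11.5% a TATA box, 4.95% an AP-1 site and 1.85% a cyclic AMP response element. These shares are by window, and a gene with several windows has more room for a match. A match describes the letters only, and binding was not measured.

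EGFR stood far above the rest of the group. It was at 258.4 FPKM in knockdown cells and 336.3 FPKM in control cells, and ranked 57 and 43 among the 13017 genes. Its share of the summed FPKM was 0.121% and 0.157%. Without the mitochondrially encoded genes its ranks were 45 and 31. It was 8.58 times as high as GRB2 in the knockdown library and 20.5 times as high in the control library. Among the genes whose levels over both libraries lay closest to EGFR, by distance in log2(FPKM + 1), were the chromatin protein gene HMGA1 at 257.3 and 289.4 FPKM, S100A6 at 304.5 and 301.2 FPKM, and the ribosomal protein genes RPL12 and RPL35.

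**Figure D1:**
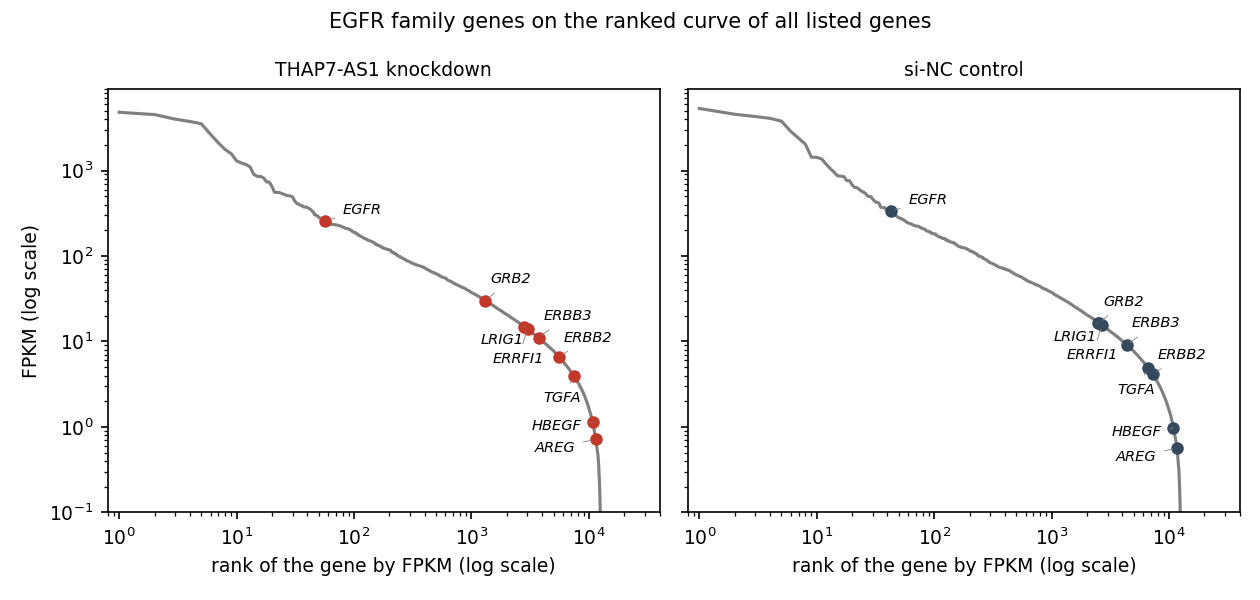
FPKM of the listed genes in order of rank, down to the lower end of the axis, both axes on a log scale, in the THAP7-AS1 knockdown library (left) and the si-NC control library (right), with the 9 measured members as points. EGFR lies at rank 57 and 43, and AREG at rank 11445 and 11658.

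The other receptors were expressed at the level of ordinary genes. ERBB3 was at 11.1 FPKM in knockdown cells and 9.13 FPKM in control cells, at percentile 71.4 and 66.3 of listed genes. ERBB2 was at 6.61 and 4.14 FPKM, at percentile 57.2 and 44.3. EGFR made up 93.6% of the summed FPKM of these 3 receptors in knockdown cells and 96.2% in control cells. EGFR was 39.1 times as high as ERBB2 in knockdown cells and 81.3 times as high in control cells, and 23.2 and 36.8 times as high as ERBB3. Both ratios were smaller in knockdown cells, where EGFR was lower and the other receptors higher.

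HBEGF and AREG were the lowest members in both libraries. In the order of the members, TGFA came next below ERBB2 in knockdown cells and next above it in control cells. TGFA was at 3.93 FPKM in knockdown cells and 4.88 FPKM in control cells, near the median gene of the tables, which was at 5.10 and 5.04 FPKM. HBEGF was at 1.14 and 0.972 FPKM and AREG at 0.720 and 0.566 FPKM, at percentiles 12.1 and 10.4 for AREG. TGFA gave 67.9% of the summed level of these 3 ligands in knockdown cells and 76.0% in control cells. EGFR was 44.7 and 52.4 times as high as that sum. Reckoned from the estimated depth and the length of all annotated exons, AREG rested on about 13.2 and 10.2 fragments and HBEGF on 38.3 and 32.1, whereas TGFA rested on 217 and 265.

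Of 8 other genes of the family, 4 were measured, all below 2 FPKM in both libraries. Betacellulin (BTC), which binds EGFR and ERBB4, was at 1.51 FPKM in knockdown cells and 1.71 FPKM in control cells. EGF itself was at 0.545 and 0.560 FPKM. The neuregulin genes, whose products bind ERBB3 and ERBB4, were at 1.22 and 0.911 FPKM for NRG2 and 0.041 and 0.035 FPKM for NRG1. The receptor gene ERBB4, EPGN, NRG3 and NRG4 were not analysed here. With EGF and BTC added to the 3 ligands, EGFR was 32.9 times as high as the sum in knockdown cells and 38.7 times in control cells.

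The inhibitor and adaptor genes lay below EGFR but above the other receptors and the ligands. LRIG1 was at 14.9 FPKM in knockdown cells and 16.5 FPKM in control cells. ERRFI1 was at 14.1 and 15.5 FPKM. LRIG1 was thus only 1.06 and 1.07 times as high as ERRFI1. EGFR was 18.3 and 21.7 times as high as ERRFI1. GRB2 was at 30.1 FPKM in knockdown cells, above both inhibitors, and at 16.4 FPKM in control cells, level with LRIG1. From high to low, the order in knockdown cells was EGFR, GRB2, LRIG1, ERRFI1, ERBB3, ERBB2, TGFA, HBEGF and AREG. In the control library LRIG1 and GRB2 changed places, at 16.5 and 16.4 FPKM, and so did TGFA and ERBB2, at 4.88 and 4.14 FPKM. With no replicate, the spread of these positions is not known.

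**Figure D2:**
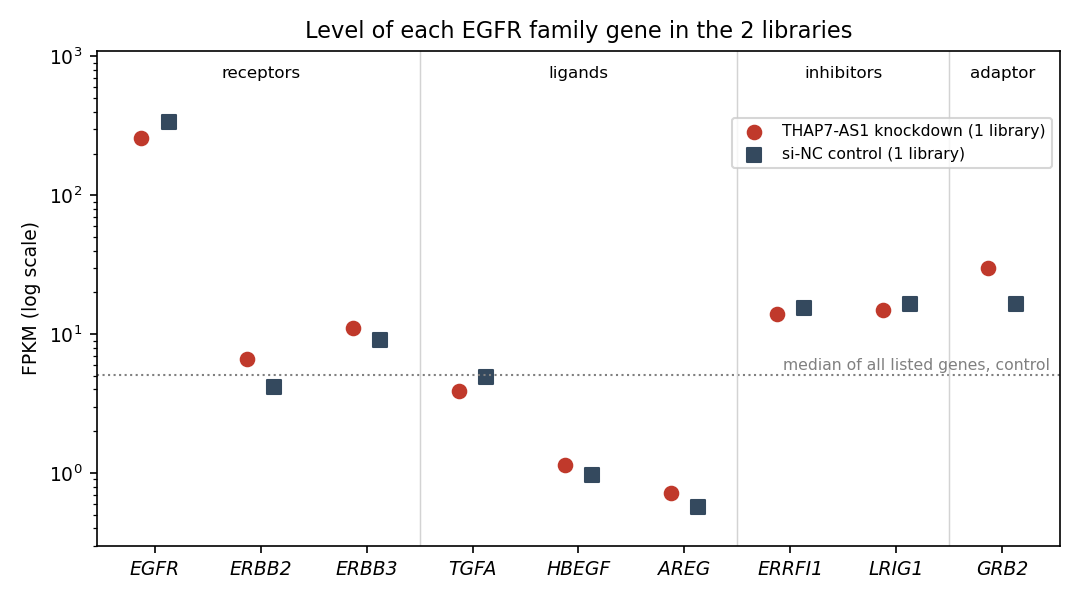
FPKM on a log scale of the 9 measured members, by role, in the THAP7-AS1 knockdown library (red circles) and the si-NC control library (dark squares), 1 library each, and the median of all listed genes in control cells (dotted line). EGFR is at 258.4 and 336.3 FPKM, and HBEGF and AREG lie between 0.566 and 1.14 FPKM.

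The libraries were compared by the log2 ratio of FPKM + 1, knockdown over control, in genes that averaged 1 FPKM or more. The added 1 makes the ratio understate the change of low genes. Of 10925 such genes, 139 were at least 2-fold apart in either direction, 1.27%, and 595 were at least 1.5-fold apart, 5.45%. Of the members, 8 passed the level filter and AREG did not. None of the 8 was 2-fold apart, and GRB2 was 1.5-fold apart. A share of 1 in 8 is a single gene, and it says nothing about the group. Of the 8, 4 were above 0 and 4 below, with a median of -0.005 beside 0.02 over all tested genes. The sign of that median changed between settings, and the members did not move together.

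GRB2 had the largest ratio. Its level of 30.1 FPKM in knockdown cells against 16.4 FPKM in control cells gave a log2 ratio of 0.84, 1.79-fold higher in knockdown cells. Of 394 genes with a mean within 10% of that of GRB2, 6 lay at least as far from 0, or 1.52%. The ratio of GRB2 ran from 0.71 to 0.87 over the alternatives in processing. Among its nearest listed genes on the chromosome, TMEM94 was at 5.35 and 4.30 FPKM and MIF4GD at 6.37 and 3.19 FPKM. The log2 ratio of MIF4GD, 0.82, was close to that of GRB2, while that of TMEM94 was 0.26. No annotated exon of another gene overlaps GRB2.

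ERBB2 was next, at 6.61 FPKM in knockdown cells against 4.14 FPKM in control cells, for a log2 ratio of 0.57, 1.48-fold higher in knockdown cells. Of 760 genes within 10% of its level, 61 lay at least as far from 0, or 8.03%. The exons of MIEN1 and PGAP3, on the other strand, overlap those of ERBB2. Whether the libraries kept strand is not stated, so reads in the overlap cannot be assigned. MIEN1 was at 10.19 and 10.25 FPKM and PGAP3 at 0.645 and 0.849 FPKM, and neither was higher in knockdown cells. The adaptor gene GRB7, a close neighbour of ERBB2, was at 5.85 and 4.64 FPKM, for a log2 ratio of 0.28.

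ERBB3 was at 11.1 FPKM in knockdown cells against 9.13 FPKM in control cells, for a log2 ratio of 0.26. Of 673 genes at its level, 24.7% lay at least as far from 0. Its exons are shared with a readthrough model that was not analysed here. The direction was the same as that of ERBB2, and the size was within the ordinary range of genes at its level.

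EGFR was the member with the lowest ratio. Its 258.4 FPKM in knockdown cells against 336.3 FPKM in control cells gave a log2 ratio of -0.38, 1.30-fold lower in knockdown cells. The estimated 36047 and 46078 fragments make the counting error of this ratio 0.010, which does not cover the spread between cultures. Of 243 genes that averaged 100 FPKM or more, 15 lay at least as far from 0, or 6.17%, and 5 were as low, EGFR being counted in both. The ratio ran from -0.41 to -0.37 over the alternatives. An antisense gene, EGFR-AS1, overlaps its exons on the other strand and was not analysed here.

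The log2 ratios of the ligands were small, and the added 1 shrank those of HBEGF and AREG. TGFA was at 3.93 FPKM in knockdown cells against 4.88 FPKM in control cells, for a log2 ratio of -0.26, and 28.4% of 728 genes at its level lay at least as far from 0. HBEGF had a log2 ratio of 0.12 with a counting error of 0.35 on the ratio without the added 1. AREG, below the level filter, had 0.13 with a counting error of 0.60. Without the added 1, HBEGF was 1.17 times and AREG 1.27 times as high in knockdown cells as in control cells. A difference in HBEGF or AREG of that size was not detectable at this depth, so whether they differed is not known. The inhibitors had log2 ratios of -0.13 for ERRFI1 and -0.13 for LRIG1, and over 50% of genes at their levels, 53.8% and 51.5%, lay at least as far from 0. An antisense model overlaps the exons of ERRFI1, and SLC25A26, at 0.867 and 0.844 FPKM, overlaps those of LRIG1.

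**Figure D3:**
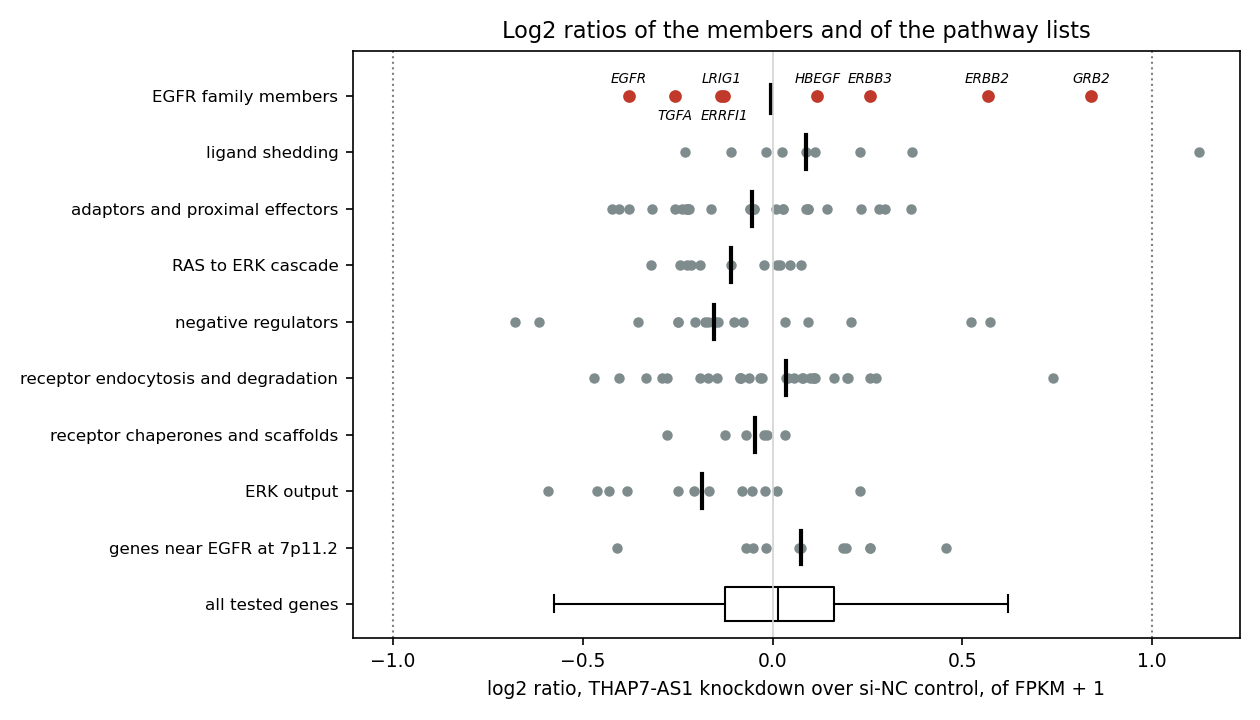
Log2 ratio of FPKM + 1, THAP7-AS1 knockdown over si-NC control, for each gene that averaged 1 FPKM or more: the 8 members (red), the pathway lists (grey, black bars for medians) and all tested genes (box for quartiles, whiskers for the central 95%). Dotted lines mark 2-fold, and the members run from -0.38 for EGFR to 0.84 for GRB2.

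The genes around EGFR on 7p11.2 were abundant as well. SEC61G, a subunit of the channel that moves proteins into the endoplasmic reticulum, is the nearest listed gene on one side and was at 518.4 FPKM in knockdown cells and 493.9 FPKM in control cells. On the other side, LANCL2 was at 234.4 and 222.4 FPKM and VOPP1 at 210.0 and 152.8 FPKM. Next came ENSG00000249773, a gene without a symbol, at 4.51 and 3.53 FPKM. Further along that side lay ZNF713 at 18.0 and 14.9 FPKM, NIPSNAP2 at 45.4 and 46.0 FPKM, and MRPS17, a mitochondrial ribosomal protein gene, at 56.9 and 49.9 FPKM. ZNF713, NIPSNAP2 and MRPS17 were lower than the genes next to EGFR but above the median gene, and ENSG00000249773 was below it.

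Beyond these, PSPH, an enzyme of serine synthesis, was at 48.8 and 40.7 FPKM in the knockdown and control libraries. The chaperonin gene CCT6A was at 405.5 and 425.9 FPKM, SUMF2 at 51.3 and 68.5 FPKM and CHCHD2 at 554.3 and 574.3 FPKM. PHKG1, a muscle kinase subunit, lay among them at 1.49 and 1.18 FPKM. Of the 13 genes listed for this region, 11 were measured. Before SEC61G, GRB10 was at 2.58 and 2.35 FPKM and DDC at 1.21 and 1.58 FPKM, so the high stretch began at SEC61G.

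The median level of the 6 listed genes flanking EGFR, 3 on each side, was 107 FPKM in knockdown cells and 78.2 FPKM in control cells. No flanking gene was near these medians. They lie midway between ENSG00000249773, at 4.51 and 3.53 FPKM, and VOPP1, at 210.0 and 152.8 FPKM. Their difference between libraries is thus mostly that of VOPP1. By such a median EGFR ranked 15 and 16 of 12789 genes with such flanks. The flanks of ERBB2 had medians of 2.97 and 2.74 FPKM, at percentile 21.1 and 18.9. Those of ERBB3 ranked 22 and 27, with medians of 62.0 and 55.7 FPKM. These medians lie midway between SUOX, at 4.11 and 1.24 FPKM, and RPS26, at 119.9 and 110.2 FPKM. The flanks of ERBB3 also hold PA2G4 and RPL41, while ERBB3 itself stayed at 11.1 and 9.13 FPKM. Abundant neighbours thus also stood beside a member of ordinary level, and what sets these levels was not tested.

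The abundant genes next to EGFR were not lower in knockdown cells. SEC61G had a log2 ratio of 0.07, LANCL2 0.08 and VOPP1 0.46, against -0.38 for EGFR, whereas DDC, the farthest of the flanking genes before SEC61G, had -0.22. Over the 11 genes near EGFR the median was 0.08, with 7 above 0 and 4 below, beside 0.02 over all tested genes. The median near EGFR was above 0 under every setting tried, though neither another pseudocount nor centring could have changed that sign. SUMF2, at -0.41, had the lowest ratio of the region.

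**Figure D4:**
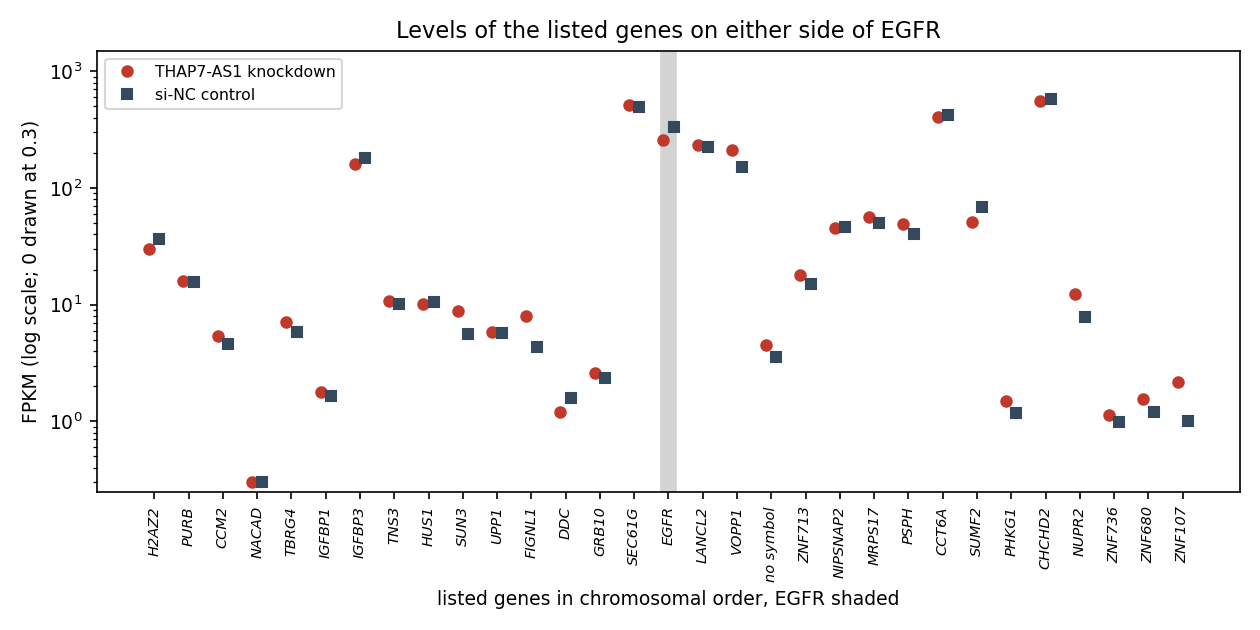
FPKM on a log scale of the 15 listed genes on either side of EGFR, in chromosomal order and not to distance, in the THAP7-AS1 knockdown library (red circles) and the si-NC control library (dark squares). SEC61G, EGFR, LANCL2 and VOPP1 form a run between 152.8 and 518.4 FPKM, and EGFR alone in that run is lower in knockdown cells.

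Of 11 genes that cut the ligands from the membrane or regulate this step, 9 were expressed, and ADAM8, at 0.316 and 0.009 FPKM in the knockdown and control libraries, and ADAM12, at 0.127 and 0.235 FPKM, were below 1 FPKM in both. ADAM17, the main sheddase of TGFA, AREG and HBEGF, was at 22.4 FPKM in knockdown cells and 24.2 FPKM in control cells, for a log2 ratio of -0.11. ADAM10, which releases EGF and BTC in mouse cells, was at 6.38 and 6.25 FPKM. ADAM15 was at 14.0 FPKM in knockdown cells against 5.88 FPKM in control cells, for a log2 ratio of 1.13. It was the 1 gene of all the pathway lists that was 2-fold apart. Over all tested genes 1.27% were 2-fold apart, and a single gene says nothing about the lists. RHBDL2, a rhomboid protease, was at 22.0 and 16.8 FPKM, FRMD8 at 5.43 and 4.48 FPKM and ADAM9 at 12.4 and 14.7 FPKM. Of 9 tested genes of this list, 6 were above 0, with a median of 0.09.

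Among 26 adaptors and proximal effectors, 11 were above 0 and 15 below, with a median of -0.05. None was 1.5-fold apart, beside 5.45% of all tested genes, a share at which a list of 26 may hold none. The adaptor genes CRKL, at 18.0 FPKM in knockdown cells and 24.5 FPKM in control cells, and CRK, at 10.4 and 14.1 FPKM, had log2 ratios of -0.42 and -0.41. PIK3CB, a catalytic subunit of PI3 kinase, was at 4.12 and 5.66 FPKM, and the transcription factor gene STAT5A at 3.16 and 2.23 FPKM. SOS1, the exchange factor that GRB2 carries, was at 14.2 and 16.9 FPKM, for a log2 ratio of -0.24, and SHC1, which links receptors to GRB2, was at 10.1 and 12.3 FPKM, for a log2 ratio of -0.26. Some other partners of GRB2 were level or higher in knockdown cells, with log2 ratios of 0.03 for SOS2, 0.03 for PTPN11, 0.09 for GAB1 and 0.30 for GAB2. The partners CBL and DNM2, from the list of receptor uptake and breakdown, were lower, at -0.29 and -0.33. These partners are named here after their values had been seen and are not all the partners of GRB2.

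In the cascade from RAS to ERK, 4 of 11 tested genes were above 0 and 7 below, with a median of -0.11. NRAS was at 22.3 FPKM in knockdown cells and 28.1 FPKM in control cells, HRAS at 16.8 and 20.1 FPKM, the ERK kinase gene MAP2K2 at 16.8 and 19.8 FPKM and BRAF at 2.50 and 3.06 FPKM. The ratios of this list lay between -0.32 and 0.08. Of its genes 0 were 1.5-fold apart, beside 5.45% of all tested genes, and so short a list may hold none at that share.

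Other negative regulators were more often below 0 than above, 14 against 5 of 19, with a median of -0.16. SOCS3, a suppressor of cytokine signalling, was at 4.48 FPKM in knockdown cells and 7.78 FPKM in control cells, and the phosphatase gene PTPN12 at 13.1 and 20.6 FPKM, with log2 ratios of -0.68 and -0.62. SPRY1, a Sprouty inhibitor of RAS signalling, was at 4.38 and 2.62 FPKM. RNF41, the ubiquitin ligase for ERBB3, was at 4.84 and 3.06 FPKM, for a log2 ratio of 0.52, beside 0.26 for ERBB3 itself. Over all tested genes 53.1% were above 0. The median of this list was below 0 under every setting tried, though neither another pseudocount nor centring could have changed that sign. In the short list of ERK output genes 2 of 12 were above 0, with a median of -0.19, and its lowest ratios were those of MYC at 1.94 and 3.43 FPKM, CCND1 at 29.5 and 41.0 FPKM, FOSL1 at 6.54 and 9.16 FPKM and DUSP5 at 7.03 and 9.48 FPKM. IER3, the most abundant of that list, went the other way at 233.5 and 198.9 FPKM, and the summed level of the list was 322.7 FPKM in knockdown cells and 309.5 FPKM in control cells. SPRY4 is counted in both of these lists.

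Genes of receptor uptake and breakdown were balanced, with 15 of 29 above 0 and a median of 0.03, which became -0.05 without genes whose exons overlap another gene. RAB5A, the small GTPase of early endosomes, was at 15.2 FPKM in knockdown cells and 8.70 FPKM in control cells, for a log2 ratio of 0.74. TSG101 and VPS4B, of the machinery that sorts receptors to lysosomes, were at 6.32 and 9.14 FPKM and at 10.7 and 14.4 FPKM, and DNM2, which pinches off endocytic vesicles, was at 12.7 and 16.3 FPKM. Of 6 chaperone and scaffold genes, 5 were below 0, with a median of -0.05. HSP90AA1, a chaperone of ERBB2, was at 376.4 and 367.7 FPKM, HSP90B1 at 162.8 and 171.1 FPKM, STUB1 at 17.6 and 19.3 FPKM and ERBIN, a binding partner of ERBB2, at 5.08 and 6.38 FPKM.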

How the data were processed

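RNA was sequenced from 1 knockdown and 1 control culture. The authors deposited 1 table of gene-level FPKM for each library, the unit being given per the file headers. The build hg19 and the tools StringTie, cutadapt and HISAT2 2.0.5 are listed in the submitters' processing notes, with gene annotation, strandedness and settings not given in the sources used here. StringTie divides reads among overlapping models by estimate. The members and lists were chosen with earlier results of these data known.

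Identifiers were matched to symbols for 12903 of 13017 genes. GENCODE release 29, of another build, gave exon lengths, overlaps and gene order for 12933 identifiers. Log2 ratios used a pseudocount of 1 and genes that averaged 1 FPKM or more; 2-fold was the rule of size. Named were all members, up to 4 genes with the largest ratios per list, the measured genes of the family and region, and the 5 nearest to EGFR in level; a gene taken by the rule but not printed is not reported here. Cell type markers, ADAM8, ADAM10, ADAM12, ADAM17, IER3, neighbours of other members and partners of GRB2 were named outside this rule, after their values had been seen. In genes with 1 annotated transcript, FPKM times length gathered near 89.7 (14 genes, knockdown) and 91.4 (10 genes, control) in a window of 80 to 100 set after the values had been seen. Read as 1 fragment, this gave the depth, which is an estimate. Counting errors cover counting only. Alternatives changed the pseudocount, filter, scaling, fold and overlapping genes. Python 3.11.15, numpy 2.4.6, pandas 2.3.3 and matplotlib 3.10.9 were used, and the ratio was tested on simulated data.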

Additional observations from a re-analysis of the deposited data

How the results depend on the processing

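Each measured member kept the sign of its log2 ratio in the 73 values computed under alternatives. All 73 moved by less than the spread of genes at the same level. Many signs were fixed in advance. A filter or a removal of genes leaves a ratio unchanged, and another pseudocount cannot change its sign. Only centring, rescaling and quantile normalization could change it. EGFR, ERBB2, ERBB3, ERRFI1 and LRIG1 themselves drop out when genes with overlapping exons are removed, so that setting does not test them. ERBB2 ran from 0.35 to 0.66 and TGFA from -0.31 to -0.15. The count of members at least 2-fold apart was 0 in each alternative at 2-fold and 1, GRB2, at 1.5-fold. The median of the members ran from -0.041 with quantile normalization to 0.118 without a filter. Over all genes, 66 were 2-fold higher or more and 73 were 2-fold lower or more. A pseudocount of 0.1 gave 140 and 126, one of 5 gave 19 and 14, a filter at 5 FPKM gave 31 and 36, rescaling each library to the same larger sum (as in TPM) gave 124 and 116, and the counts were 18 and 31 without genes whose exons overlap another gene, and 326 and 269 at 1.5-fold. By construction fewer genes pass a stricter filter or a removal of genes, and an added 1 shrinks ratios of larger values less. Of 80 list medians under alternatives, 0 moved by more than the spread of all genes, 0.21. That spread is of single genes and is larger than each of these medians in the main setting, so it is a weak check. A median could change sign and still pass. That of the other family genes went from 0.05 to -0.11 without genes whose exons overlap another gene. No paired analysis was possible because each group has 1 library. Among the members, depth limits AREG and HBEGF most; NRG1, reported beside them, rests on about 5.16 and 4.39 fragments.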
